A study of Vitis vinifera with 27 samples.

Results

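The flavonoid B-ring hydroxylases of grapevine were followed in ripening Cabernet Sauvignon berries whose clusters were exposed to sunlight. The members are 9 genes taken by their identifiers in the deposited expression table, which holds 28940 genes. Of these, 7 belong to the tandem array of flavonoid 3′,5′-hydroxylase (F3′5′H) genes on chromosome 6 and 2 are the flavonoid 3′-hydroxylase (F3′H) genes of chromosome 17, with the chromosome read from the identifier. They were chosen by gene identity, with earlier results of these data known.

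Both enzymes are cytochrome P450 monooxygenases of the endoplasmic reticulum. F3′H adds a single hydroxyl group to the B ring of flavanones, dihydroflavonols and flavonols and so feeds cyanidin-type pigments and quercetin-type flavonols, whereas F3′5′H adds a pair and feeds delphinidin-type pigments, including the malvidin derivatives that dominate the skin of dark-fruited cultivars, and myricetin-type flavonols. Both compete for the same substrates, draw their electrons from NADPH-cytochrome P450 reductase, and in petunia F3′5′H activity also depends on a cytochrome b5. The grapevine genome carries many near-identical F3′5′H copies side by side.

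The libraries were made from deseeded berries of own-rooted field vines collected in a single growing season, at 3 stages of the modified Eichhorn-Lorenz (E-L) scale: mid-ripening (E-L 36), the end of véraison (E-L 37) and harvest ripeness (E-L 38). In the LR-V vines the basal leaves of cluster-bearing shoots were removed at véraison. In the LM-V vines the same leaves were kept on the shoot and tied aside at véraison, and the C vines were left untreated. Each of the 9 groups had 3 libraries, named A, B and C, each standing for 15 vines of 1 cultivar in 1 vineyard. RNA was taken from a small random sub-sample of the 600 berries separated per replicate. Values are FPKM (fragments per kilobase of transcript relative to the mapped fragments of the library). A gene was tested when it reached 1 FPKM in at least 3 libraries, which 19761 genes and all 9 members did. Differences are given on the log2(FPKM + 1) scale with their standard error, and a gene was called when the adjusted p of limma, Benjamini-Hochberg over the 19761 genes, was below 0.05. Lack of overlap between groups and unadjusted p-values below 0.05 are reported for the members only. The share of all tested genes showing either was not counted.

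Without read counts, relative depth was inferred from the lowest nonzero FPKM values of sparsely detected genes. It lay between 0.931 and 1.03 relative to the first C library. Only values close to the lowest of each gene were used, so larger differences in depth could be missed. Libraries of a group correlated at r = 0.941 to 0.982 over genes. The skin pigmentation markers VIT_202s0033g00410 (MYBA1, the activator of anthocyanin glucosylation) and VIT_216s0039g02230 (UFGT, which glucosylates anthocyanidins) were present in every library, at no less than 3.31 and 26.8 FPKM. Storage-protein transcripts of the seed, which had been removed, were present too: 6 libraries had a mean log2(FPKM + 1) of 2 seed storage genes between 3.17 and 4.84, against at most 1.74 in any C library. Of these, 5 were LR-V libraries (replicate A of E-L 36, B and C of E-L 37, A and C of E-L 38) and 1 was the E-L 37 library B of LM-V. Within groups, the seed level correlated with the members at r = −0.311 to 0.209 over the 27 libraries, and the calls without those libraries are given beside the comparisons in which a call was lost. Leaving them out leaves 1 LR-V library at E-L 37 and 1 at E-L 38, which are then assumed to vary like the libraries of the other groups. Per the series text, the 9 C libraries had been deposited before in an earlier series, and whether they were sequenced together with the treated ones is not stated, so that such a batch cannot be told apart from treatment in any comparison with C. In whole berries, fewer pigmented skin cells and less RNA per cell cannot be told apart.

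The only member sequences at hand are the primers of the study's own real-time PCR assays. The study lists each pair for 1 copy of its enzyme, and whether a pair also matches other copies was not tested. Each primer is written from its 5′ end:
F3′5′H forward (VIT_206s0009g02810): gaagttcgactggttattaacaaagat
F3′5′H reverse (VIT_206s0009g02810): aggaggagtgctttaatgttggta
F3′H forward (VIT_217s0000g07200): acggctaccacatccccaaaaa
F3′H reverse (VIT_217s0000g07200): ccccgaatggaatcacttcaaaat
The F3′5′H pair is listed for 1 of the 7 F3′5′H members, and VIT_206s0009g02810 held between 16.7% and 26.2% of their summed level in any library. The F3′H pair is listed for the gene that held 71.3% to 87.3% of the summed level of the 2 F3′H members.

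Among the F3′5′H genes, VIT_206s0009g02830 had the highest median over the 27 libraries, 74.3 FPKM (42.9 to 137). It was followed by VIT_206s0009g02810 with 55.3 (27.7 to 117), VIT_206s0009g02970 with 46.7 (21.6 to 80.4), VIT_206s0009g02805 with 43.8 (10.9 to 115), VIT_206s0009g02840 with 32.1 (18.5 to 59.7) and VIT_206s0009g03010 with 17.3 (6.70 to 46.4). The ranges of neighbouring copies in that order overlapped. VIT_206s0009g02873 stood far below the rest, with a median of 0.36 FPKM. It was listed at 0 in 12 libraries, reached 1 FPKM in 12 others and was highest at 7.24 FPKM in LM-V replicate C at E-L 36. The F3′H gene VIT_217s0000g07200 had a median of 49.1 FPKM (23.8 to 107) and its neighbour VIT_217s0000g07210 one of 13.0 (4.23 to 31.3). Short reads aligned with mismatches allowed may be placed on either of 2 near-identical copies, so the level of a single copy is less certain than the summed level. The copies with the lowest-scoring matches to their orthology group, VIT_206s0009g02805 and VIT_206s0009g02873, had bit scores of 165 and 383, against 508 to 902 for the other F3′5′H genes.

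**Figure D1:**
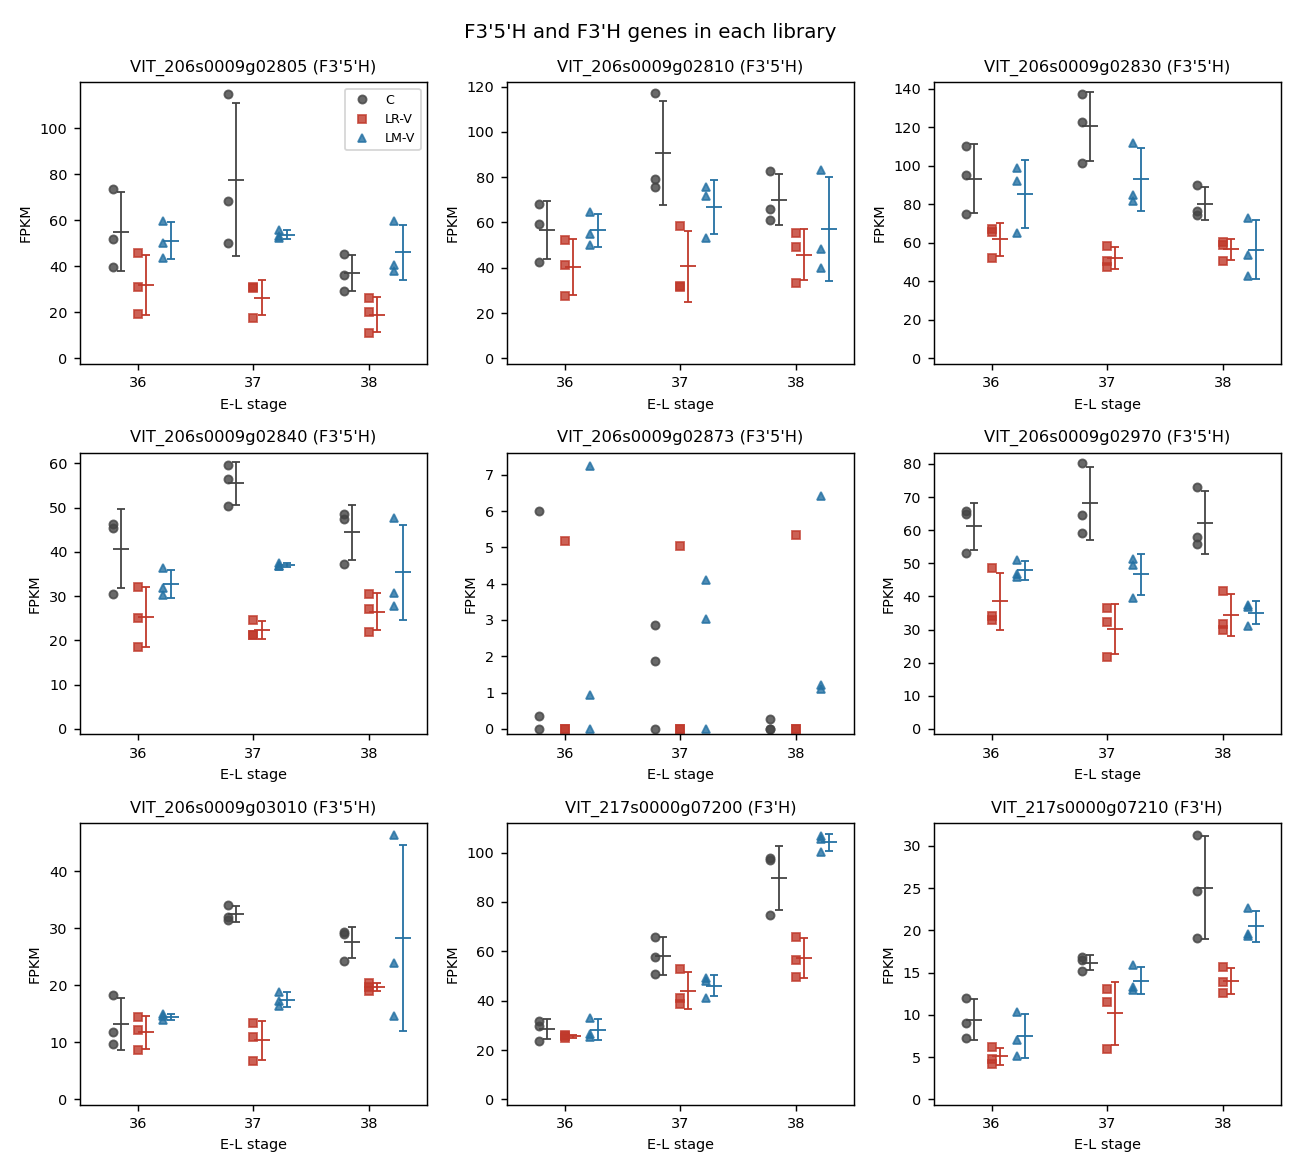
FPKM of each of the 9 genes (panels) by E-L stage, with 1 point per library for C (circles), LR-V (squares) and LM-V (triangles), and beside the points the mean with the SD of 3 libraries, left out for VIT_206s0009g02873, which is listed at 0 in 12 libraries. At E-L 37 the LR-V squares lie below every C circle in all panels but those of VIT_206s0009g02873 and VIT_217s0000g07200, and the F3′H panels climb from E-L 36 to E-L 38.

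The F3′5′H level was divided over several copies in every group. VIT_206s0009g02830 held the largest mean share in each of the 9 groups, from 21.8% in LM-V at E-L 38 to 29.7% in LR-V at E-L 36. The share of VIT_206s0009g03010 was 4.04%, 7.42% and 8.69% in C over the successive stages, and it ended at 9.73% in LR-V and 10.3% in LM-V. The share of VIT_206s0009g02805 was 9.51% in LR-V at E-L 38 and 17.8% in LM-V at that stage, with C between them at 11.4%. These shares are descriptions and carry no test. The 6 well-expressed F3′5′H genes correlated with each other over the 27 libraries at r = 0.347 to 0.835 (median 0.72 of 15 pairs), and within groups at a median r of 0.551. Their correlations with the 2 F3′H genes were lower, from −0.123 to 0.705 (median 0.273 of 12 pairs). The 2 F3′H genes correlated at r = 0.869 over all libraries but at 0.208 within groups. Reads shared between copies may enter the correlations within a family, which was not tested.

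**Figure D2:**
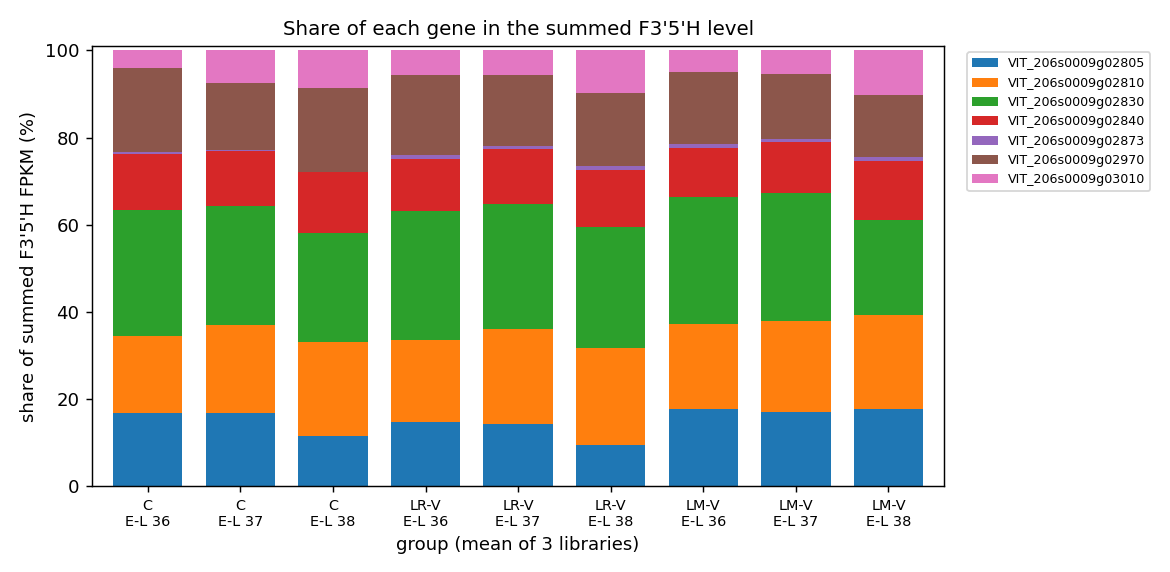
Share of each of the 7 F3′5′H genes in the summed F3′5′H level (vertical axis, percent), as the mean of 3 libraries in each of the 9 groups. VIT_206s0009g02830 holds the largest share in every group, 21.8% to 29.7%, and VIT_206s0009g03010 grows from 4.04% to 8.69% over ripening in C.

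In untreated berries the main F3′H gene rose at each step of ripening, while the summed level of the F3′5′H members was highest at E-L 37. The summed F3′H level in C over the successive stages was 37.8 ± 4.55, 74.3 ± 6.995 and 115 ± 18.4 FPKM (mean ± SD, n = 3). The libraries of successive stages did not overlap. The summed F3′5′H level was 322 ± 68.4, 447 ± 86.8 and 322 ± 37.2 FPKM, and only the last step was free of overlap. The ratio of F3′5′H to F3′H was accordingly 8.59 ± 1.88, then 6.02 ± 1.11 and at harvest 2.90 ± 0.857. These patterns hold for the 9 members and depend on which genes are summed: with all genes of both orthologies the C ratio was 1.581, 2.182 and 1.308, so that the direction of the first step turned, and the F3′H sum was 218.7, 221.1 and 270.6 FPKM, nearly level over that step. Sums and ratios are given as descriptions, without a test.

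VIT_217s0000g07200, the main F3′H gene, had 23.8, 29.8 and 31.6 FPKM in the C libraries at E-L 36, then 50.6, 57.7 and 66.0 at E-L 37 and 96.8, 97.7 and 74.7 at E-L 38. No library of a later stage fell within the range of an earlier one. The log2 difference was 1.01 ± 0.14 from E-L 36 to E-L 37 (adjusted p of limma = 6.78e-06) and 0.62 ± 0.14 from E-L 37 to E-L 38 (adjusted p of limma = 0.00166). VIT_217s0000g07210 rose by 0.74 ± 0.23 in the first step (adjusted p of limma = 0.015) and differed by 0.57 ± 0.23 in the second (adjusted p of limma = 0.069). Its first call was lost after scaling the libraries by the median of ratios and without C replicate C at E-L 36, where its adjusted p by limma was 0.0829.

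Of the F3′5′H genes, VIT_206s0009g03010 had 11.7, 18.3 and 9.63 FPKM in C at E-L 36, 31.5, 34.1 and 32.0 at E-L 37, and 29.0, 29.3 and 24.3 at E-L 38. All libraries of E-L 37 lay above those of E-L 36 and of E-L 38. VIT_206s0009g03010 was the only F3′5′H member called higher from E-L 36 to E-L 37, at 1.28 ± 0.28 (adjusted p of limma = 0.00104). With the F3′H genes, 3 of the 9 members were called higher in C, where 27.6% of all tested genes were. The other F3′5′H members had uncalled log2 differences of 0.07 to 0.67. Among them, VIT_206s0009g02810 and VIT_206s0009g02840 also had all E-L 37 libraries above all E-L 36 libraries (adjusted p of limma = 0.0738 and 0.063). From E-L 37 to E-L 38, VIT_206s0009g02805 fell by 0.98 ± 0.34 (adjusted p of limma = 0.0325) and VIT_206s0009g02830 fell by 0.57 ± 0.18 (adjusted p of limma = 0.0233). With the rise of VIT_217s0000g07200 these made 3 of 9 called, against 28.5% of all genes in either direction. Both falls were lost in 4 of 6 fits that left out a library (libraries B or C of E-L 37, or A or B of E-L 38), at adjusted p up to 0.191. Without any 1 of these libraries a single member was called.

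The step from E-L 36 to E-L 37 in C was sensitive to scaling: the median log2 difference of all tested genes was 0.20 in the deposited values and 0.01 after median-of-ratios scaling, and the calls were 5453 higher and 1966 lower against 2675 and 3318. The medians in LM-V were 0.13 and 0. After scaling, the C call of VIT_217s0000g07210 was lost (log2 difference 0.53, adjusted p of limma = 0.0847). The C call of VIT_217s0000g07200 and the LM-V calls of both F3′H genes held.

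F3′H rose after both treatments too. In LR-V, VIT_217s0000g07200 had 25.9, 24.8 and 25.9 FPKM at E-L 36, 38.7, 52.7 and 40.9 at E-L 37 and 56.6, 65.6 and 49.8 at E-L 38, with an overlap between the last pair of stages. The LM-V values were 33.1, 25.1 and 26.5, then 47.9, 41.1 and 49.1, then 106, 107 and 100, with no overlap. From E-L 36 to E-L 37 both F3′H genes were called higher and no F3′5′H gene was called in LR-V (2 of 9 members, against 18.4% of all genes higher) and in LM-V (2 of 9, against 18.8%). After median-of-ratios scaling all tested genes divided into 2805 higher and 3428 lower in LR-V, where the deposited values gave 3633 and 2773, and into 2012 and 2706 in LM-V, where they gave 3720 and 1743. One call, VIT_217s0000g07210, was lost in LR-V without replicate B at E-L 37 (adjusted p of limma = 0.0627) and in LM-V without replicate B at E-L 36 (adjusted p of limma = 0.061).

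From E-L 37 to E-L 38 the main F3′H gene rose by 1.16 ± 0.14 in LM-V (adjusted p of limma = 7.14e-07) and by 0.37 ± 0.14 in LR-V (adjusted p of limma = 0.041). In LM-V, VIT_206s0009g02830 fell by 0.73 ± 0.18 (adjusted p of limma = 0.00344), which made 2 of 9 members called against 38.7% of all genes in either direction. In LR-V, VIT_206s0009g03010 rose by 0.91 ± 0.28 (adjusted p of limma = 0.016), from 6.70, 13.5 and 11.0 FPKM to 19.1, 20.5 and 19.7, and the count was 2 of 9 against 17.9% of all genes higher. Without LR-V replicate A at E-L 37 neither LR-V call remained, and the F3′H call was also lost without LR-V replicate C at E-L 37 or replicates A or B at E-L 38. It was lost as well after scaling (adjusted p of limma = 0.0779), with no filter, without trend and robust fitting, and with only the compared groups in the fit (up to 0.113). Without the libraries of high seed level the call of VIT_206s0009g03010 was lost (adjusted p of limma = 0.081).

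**Figure D3:**
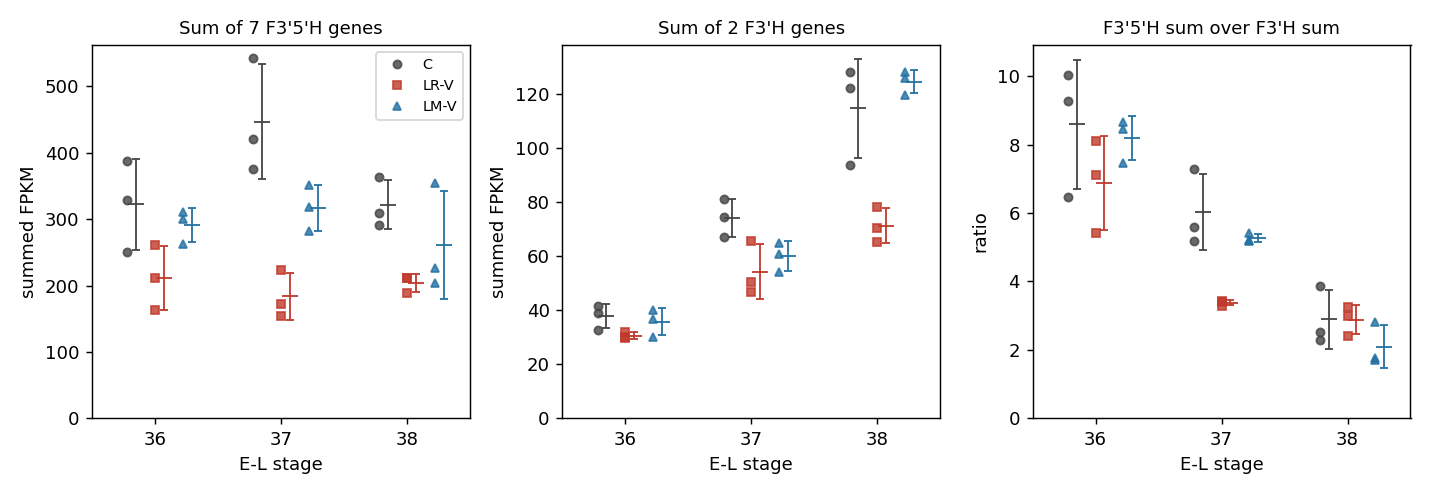
Summed FPKM of the 7 F3′5′H genes (left), summed FPKM of the 2 F3′H genes (middle) and their ratio (right) by E-L stage, with 1 point per library for C (circles), LR-V (squares) and LM-V (triangles) and the mean with the SD of 3 libraries beside them. At E-L 37 the LR-V ratios lie between 3.29 and 3.44, below every C ratio (5.19 to 7.29) and every LM-V ratio (5.19 to 5.41), while the groups overlap at E-L 36 and E-L 38.

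Leaf removal was followed by lower F3′5′H transcript levels, with the lowest mean relative to C at E-L 37. The summed F3′5′H level over the successive stages in LR-V was 211 ± 48.8, 184 ± 35.8 and 204 ± 12.9 FPKM (n = 3), which is 0.656, 0.411 and 0.634 times that of C. The sum stayed between 154 and 260 FPKM in all 9 LR-V libraries, and the maximum that C reached at E-L 37 was not seen.

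At E-L 37, 6 of the 7 F3′5′H genes were lower in LR-V than in C, where 3.23% of all tested genes were lower. Over all genes the calls were 638 lower and 353 higher, and 275 lower and 522 higher after median-of-ratios scaling, under which the 6 members stayed called. Their log2 differences lay between −1.61 and −1.17, with a median over all 7 genes of −1.19 beside −0.09 for all tested genes. The member left out was VIT_206s0009g02873, at −0.29 ± 1.01.

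VIT_206s0009g02840 had 50.3, 56.5 and 59.7 FPKM in the C libraries at E-L 37 and 21.2, 21.2 and 24.6 in the LR-V libraries. No LR-V library came near the lowest C library, and the log2 difference was −1.27 ± 0.19 (adjusted p of limma = 0.000491). VIT_206s0009g02970 had 64.5, 80.4 and 59.3 FPKM in C and 32.3, 36.4 and 21.6 in LR-V. Again the groups did not overlap, and the log2 difference was −1.17 ± 0.18 (adjusted p of limma = 0.000496). VIT_206s0009g02830, the most abundant copy, had 102, 137 and 123 FPKM in C and 50.3, 58.3 and 47.7 in LR-V. The log2 difference was −1.19 ± 0.18 (adjusted p of limma = 0.000646).

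VIT_206s0009g03010 showed the largest difference of any member at this stage, with 31.5, 34.1 and 32.0 FPKM in C and 6.70, 13.5 and 11.0 in LR-V. The log2 difference was −1.61 ± 0.28 (adjusted p of limma = 0.0021), and the LR-V mean was 0.319 times that of C. For VIT_206s0009g02805 the C libraries had 50, 115 and 68.4 FPKM and the LR-V libraries 30.8, 30.5 and 17.7, and for VIT_206s0009g02810 the C libraries had 75.9, 117 and 79.1 and the LR-V libraries 31.5, 58.6 and 31.8. These groups did not overlap either, but C replicate B stood above its own group in both genes. Their differences were −1.48 ± 0.34 (adjusted p of limma = 0.0139) and −1.17 ± 0.29 (adjusted p of limma = 0.0224). Both calls were lost without C replicate B or without LR-V replicate C, at which 4 members remained called, and VIT_206s0009g02810 was lost also without LR-V replicate A. With only C and LR-V at E-L 37 in the fit both were lost too, and 4 members were called (adjusted p of limma = 0.0993 and 0.0982). The calls of VIT_206s0009g02830, VIT_206s0009g02840, VIT_206s0009g02970 and VIT_206s0009g03010 held in each of the 6 fits that left out a library, with an adjusted p of at most 0.0171. Without the 6 libraries of high seed level VIT_206s0009g02805 was lost (adjusted p of limma = 0.107). The 5 other calls then compare a single LR-V library with C, with the spread taken from other groups, and are no replicated test of leaf removal.

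The F3′H genes were not called at E-L 37. VIT_217s0000g07200 had 50.6, 57.7 and 66.0 FPKM in C and 38.7, 52.7 and 40.9 in LR-V, with an overlap, and a log2 difference of −0.39 ± 0.14 (adjusted p of limma = 0.0964). VIT_217s0000g07210 had 16.5, 16.9 and 15.2 FPKM in C and 11.6, 13.0 and 5.95 in LR-V, without overlap, at −0.68 ± 0.23 (adjusted p of limma = 0.0909). Both had an unadjusted p below 0.05. The ratio of F3′5′H to F3′H was 3.38 ± 0.0745 in LR-V and 6.02 ± 1.11 in C, and no library overlapped.

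**Figure D4:**
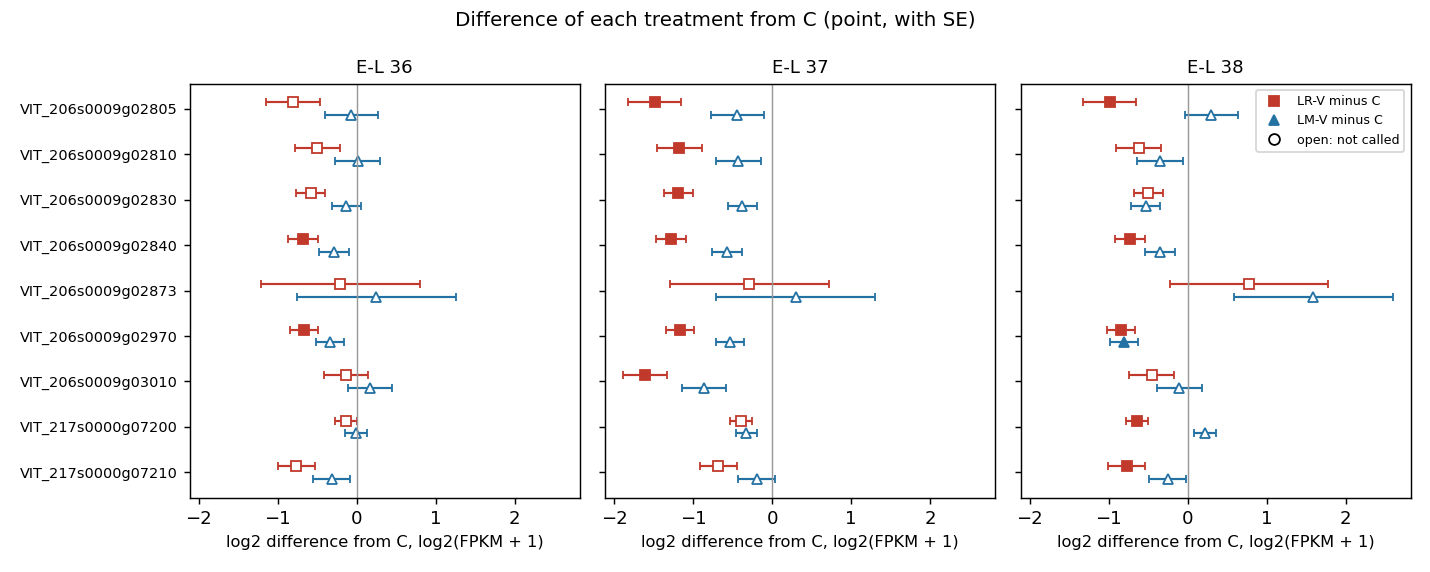
Difference of LR-V (squares) and LM-V (triangles) from C for each of the 9 genes at E-L 36, E-L 37 and E-L 38 (panels), on the log2(FPKM + 1) scale with the standard error, with filled symbols for genes called at an adjusted p of limma below 0.05. At E-L 37 the LR-V differences of the 6 called F3′5′H genes lie between −1.61 and −1.17, and those of LM-V for these genes between −0.86 and −0.38 with open symbols.

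Fewer members were called at E-L 36. Of the 7 F3′5′H genes 2 were lower in LR-V, against 1.46% of all tested genes, and all 7 had a log2 difference below 0 (median −0.58, all tested genes 0.02). VIT_206s0009g02970 had 64.8, 65.7 and 53.0 FPKM in C and 32.9, 34.1 and 48.5 in LR-V, without overlap, at −0.67 ± 0.18 (adjusted p of limma = 0.0275). VIT_206s0009g02840 had 46.3, 45.3 and 30.5 FPKM in C and 18.5, 25.0 and 32.1 in LR-V, with 1 library of each group overlapping, at −0.68 ± 0.19 (adjusted p of limma = 0.0375). Both calls were lost without C replicate A or B or LR-V replicate A or B, without the libraries of high seed level, and with the seed level in the model, each of which left 0 members called. No F3′H gene was called. VIT_217s0000g07200 was at 23.8 to 31.6 FPKM in C and 24.8 to 25.9 in LR-V. VIT_217s0000g07210 was at 7.25 to 11.98 FPKM in C and 4.23 to 6.22 in LR-V, without overlap. Its log2 difference was −0.76 ± 0.23 (adjusted p of limma = 0.0572).

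At harvest, members of both families were called. In LR-V at E-L 38, 3 of 7 F3′5′H genes and both F3′H genes were lower than in C, 5 of the 9 members against 7.66% of all tested genes. VIT_217s0000g07200 had 96.8, 97.7 and 74.7 FPKM in C and 56.6, 65.6 and 49.8 in LR-V, without overlap, at −0.64 ± 0.14 (adjusted p of limma = 0.0024). VIT_217s0000g07210 had 31.3, 24.6 and 19.1 FPKM in C and 13.9, 12.5 and 15.7 in LR-V, also without overlap, at −0.77 ± 0.23 (adjusted p of limma = 0.0247).

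Of the F3′5′H genes, VIT_206s0009g02970 had 55.9, 57.9 and 73.1 FPKM in C at E-L 38 and 41.6, 31.6 and 29.9 in LR-V, at −0.84 ± 0.18 (adjusted p of limma = 0.00197). VIT_206s0009g02840 was lower by the same measure at −0.73 ± 0.19 (adjusted p of limma = 0.0105) and VIT_206s0009g02805 at −0.98 ± 0.34 (adjusted p of limma = 0.0472). All LR-V libraries lay below all C libraries in each of these genes, as they did in VIT_206s0009g02810, VIT_206s0009g02830 and VIT_206s0009g03010, which were not called. How many of all tested genes were separated in this way was not counted, and 47.2% had a log2 difference below 0. Leaving out 1 library kept between 2 and 4 members called, with 2 remaining without C replicate B or LR-V replicate A. VIT_206s0009g02805 was lost in 5 of these 6 fits (all but the one without LR-V replicate B), and also with no filter, without trend and robust fitting, and with only the compared groups. VIT_217s0000g07210 was lost in 4 (C or LR-V replicates A or B left out), while VIT_206s0009g02970 and VIT_217s0000g07200 held in all 6. With the seed level in the model 3 members remained, and without the libraries of high seed level, which leaves 1 LR-V library, VIT_206s0009g02970 alone did. Because F3′5′H and F3′H were both lower, the ratio was 2.88 ± 0.421 in LR-V and 2.90 ± 0.857 in C, with overlapping libraries.

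Averaged over the 3 stages, the LR-V effect was a lower level of 8 of the 9 members, against 8.31% of all tested genes. The exception was again VIT_206s0009g02873, at 0.09 ± 0.58. The F3′5′H genes ranged from −1.09 ± 0.19 for VIT_206s0009g02805 to −0.73 ± 0.16 for VIT_206s0009g03010. The F3′H genes were at −0.39 ± 0.08 for VIT_217s0000g07200 (adjusted p of limma = 0.00211) and −0.74 ± 0.13 for VIT_217s0000g07210 (adjusted p of limma = 0.000889). All 8 calls held in each of the 18 fits that left out a library, and 7 of them without the libraries of high seed level, the exception being VIT_206s0009g02805.

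The change of the LR-V effect between stages was tested as an interaction. From E-L 36 to E-L 37 the effect on VIT_206s0009g03010 became more negative by 1.47 ± 0.40 on the log2 scale, from −0.13 to −1.61, with an interaction of −1.47 (adjusted p of limma = 0.0364), 1 of 9 members against 3.49% of all tested genes. The call was lost in 9 of 12 fits that left out a library, at adjusted p up to 0.118, and without the libraries of high seed level (adjusted p of limma = 0.0541). After median-of-ratios scaling the adjusted p of limma was 0.0621. All tested genes had a median interaction of −0.11 as deposited and 0.01 as scaled, and 689 lower and 208 higher calls became 425 and 368. From E-L 37 to E-L 38 limma called 0 of the 9 members, 2 of which had an unadjusted p below 0.05, and 7.70% of all genes were called. Here the median of all tested genes was 0.11 as deposited and 0.002 as scaled, and 1097 higher and 424 lower calls became 701 and 693.

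Leaf moving, which exposed the clusters while the leaves stayed on the shoot, was followed by fewer calls among the members. Whether its effect on single members differed from that of leaf removal is tested further on. The summed F3′5′H level over the successive stages in LM-V was 291 ± 25.6, 317 ± 34.8 and 261 ± 81.0 FPKM (n = 3). At E-L 36 limma called 0 members, none of which had an unadjusted p below 0.05, and 0.0708% of all tested genes were called. At E-L 37 it also called 0 members, while 3 F3′5′H genes and 1 F3′H gene had an unadjusted p below 0.05, and 0.572% of all tested genes were called (73 higher and 40 lower, or 119 and 25 after scaling). The rule of a fold change of at least 2 with a probability of at least 0.8, rebuilt after the study's methods, picked 0 members at both stages.

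At E-L 37 the LM-V libraries lay below all C libraries in 4 of the F3′5′H genes, VIT_206s0009g02810, VIT_206s0009g02840, VIT_206s0009g02970 and VIT_206s0009g03010, none of which was called. Of all tested genes, 65.3% had a log2 difference below 0 in this comparison, and how many lacked overlap was not counted. In VIT_206s0009g02840 the LM-V libraries had 36.7, 37.5 and 36.9 FPKM, between the C and the LR-V libraries, at −0.57 ± 0.19 (adjusted p of limma = 0.216). In VIT_206s0009g03010 they had 17.3, 16.3 and 18.9 FPKM, again between both, at −0.86 ± 0.28 (adjusted p of limma = 0.202). The summed F3′5′H level showed the same order, with 282 to 351 FPKM in LM-V, at least 376 in C and at most 224 in LR-V. The ratio of 5.27 ± 0.118 overlapped with that of C.

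At E-L 38, 1 member was lower in LM-V than in C, against 4.90% of all tested genes. VIT_206s0009g02970 had 31.0, 37.3 and 36.8 FPKM in LM-V and 55.9, 57.9 and 73.1 in C, at −0.81 ± 0.18 (adjusted p of limma = 0.00546), and this call held in all 6 fits that left out a library. In VIT_206s0009g02830 all LM-V libraries (42.9 to 73.1 FPKM) also lay below all C libraries (74.3 to 90.2). Its difference of −0.53 ± 0.18 was not called (adjusted p of limma = 0.0778). VIT_206s0009g02810 and VIT_206s0009g03010 were spread widely in LM-V at harvest. Replicate B had 83.3 FPKM of the former against 48.2 and 40.1, and 46.4 FPKM of the latter against 24.0 and 14.7. The main F3′H gene was higher in all LM-V libraries (106, 107 and 100 FPKM) than in all C libraries (at most 97.7), at 0.22 ± 0.14 (adjusted p of limma = 0.348). VIT_206s0009g02873 had 1.10, 6.41 and 1.22 FPKM in LM-V, while C was listed at 0 in 2 libraries and had 0.26 in the last.

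Averaged over the stages, the LM-V effect was called for VIT_206s0009g02970 at −0.56 ± 0.10 (adjusted p of limma = 0.00729) and VIT_206s0009g02840 at −0.40 ± 0.11 (adjusted p of limma = 0.0492), 2 of 9 members against 1.85% of all tested genes. The whole table held 365 lower and 223 higher calls, and 161 and 363 after scaling. The call of VIT_206s0009g02840 was lost in 15 of 18 fits that left out a library, after scaling, with either smaller pseudocount, with no filter, without trend and robust fitting, and without the libraries of high seed level. The change of the LM-V effect between stages was called by limma for 0 members at either step, with 1 and 1 members at an unadjusted p below 0.05, where 0.0405% of all tested genes were called for E-L 37 against E-L 36 and 3.81% for E-L 38 against E-L 37. At the latter step 473 genes were higher and 279 lower, or 361 and 326 after scaling.

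The treatments were compared directly as well. The study recorded more photosynthetically active radiation at the fruit zone after leaf removal than after leaf moving during maturation of that season. During véraison the recorded levels were nearly the same. Loss of leaves therefore cannot be told apart from degree of exposure at harvest, and whether they can be at the earlier stages was not tested. The LR-V and LM-V differences from C share the C libraries, and this comparison does not use them. At E-L 36 limma called 0 members, with 2 F3′5′H genes at an unadjusted p below 0.05, and 0.0354% of all tested genes. At E-L 37 it called 0 members and 0 genes at all, 0% of those tested. An unadjusted p below 0.05 was found in 6 F3′5′H genes and 1 F3′H gene, and its share over all tested genes was not counted. The log2 differences of the F3′5′H genes lay between −1.04 and −0.59. For VIT_206s0009g02840 the groups were 21.2 to 24.6 FPKM in LR-V and 36.7 to 37.5 in LM-V, without overlap, at −0.71 ± 0.19 (adjusted p of limma = 0.437). The rebuilt rule of fold change and probability picked 1 member here and 0 at E-L 36. The ratio of F3′5′H to F3′H did not overlap between LR-V (3.29 to 3.44) and LM-V (5.19 to 5.41).

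At E-L 38, LR-V was lower than LM-V in 2 of 9 members, against 2.39% of all tested genes. Over all genes 472 were lower and 1000 higher, or 887 and 910 after scaling. VIT_217s0000g07200 had 56.6, 65.6 and 49.8 FPKM in LR-V and 106, 107 and 100 in LM-V, at −0.86 ± 0.14 (adjusted p of limma = 0.00103), and the call held in all 6 fits that left out a library. VIT_206s0009g02805 had 20.2, 26.1 and 10.9 FPKM in LR-V and 38.0, 59.9 and 40.4 in LM-V, at −1.28 ± 0.34 (adjusted p of limma = 0.0242). This call was lost without LR-V replicate C or LM-V replicate B, at adjusted p up to 0.177, and both were lost without the libraries of high seed level, which leaves 1 LR-V library (VIT_217s0000g07200 at −0.66, adjusted p of limma = 0.167).

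The deposited annotation assigns 18 genes to the F3′5′H orthology and 15 to that of F3′H, and the members held 86.5% to 96.0% of the former and 12.9% to 48.5% of the latter. Of the 11 other F3′5′H genes 4 passed the expression minimum, and 2 of these were lower in LR-V at E-L 37, against 3.23% of all tested genes. VIT_206s0009g03000, of the same array, had 25.7 ± 7.24 FPKM in C and 4.78 ± 1.84 in LR-V (n = 3), at −2.22 ± 0.43 (adjusted p of limma = 0.00426). VIT_206s0009g03013 was at 1.66 and 0.18 FPKM, at −1.17 ± 0.23 (adjusted p of limma = 0.00433). The others were VIT_206s0009g02920 and VIT_208s0007g05160, with means of 1.55 and 6.94 FPKM. Of the 13 other genes with the F3′H orthology 4 passed, and none was called between a treatment and C at any stage. The most abundant of them, VIT_202s0025g04864, had a mean of 132 FPKM, and VIT_209s0002g01090, VIT_211s0016g01020 and VIT_202s0025g04866 had 16.7, 1.97 and 1.41. Whether these act on flavonoids is not given by the files.

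The redox partners of the hydroxylases were examined next. Of the 7 tested genes of NADPH-cytochrome P450 reductase, the common electron donor, limma called 0 between either treatment and C at any stage, and the most abundant, VIT_211s0052g00880, lay between 83.2 and 102 FPKM in all group means. Of the 3 genes annotated as cytochrome b5, 1 was called lower at E-L 37 with leaf removal, and at harvest 3 were lower in LR-V and 2 in LM-V. Of all tested genes, 3.23%, 7.66% and 4.90% were lower in these comparisons, in that order. The most abundant, VIT_216s0098g01230, was at 197 FPKM in C and 154 in LR-V at E-L 38, at −0.36 ± 0.10 (adjusted p of limma = 0.0157).

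Upstream of the hydroxylases, 2 of 4 tested chalcone synthase genes, both chalcone isomerase genes and 1 of 2 flavanone 3-hydroxylase genes were lower in LR-V than in C at E-L 37, and none was higher. Of all tested genes, 3.23% were lower in this comparison. The most abundant chalcone synthase, VIT_205s0136g00260, which makes the first committed flavonoid skeleton, was at 759 FPKM in C and 384 in LR-V, at −1.003 ± 0.17 (adjusted p of limma = 0.00152). The chalcone isomerase VIT_213s0067g03820, which closes the ring, was at 104 and 53.6 FPKM, at −1.02 ± 0.22 (adjusted p of limma = 0.0113). Downstream, 1 of 3 leucoanthocyanidin dioxygenase (LDOX) genes and 1 of 5 UFGT genes were lower at that stage. LDOX VIT_202s0025g04720 was at 181 FPKM in C and 78.8 in LR-V, at −1.26 ± 0.25 (adjusted p of limma = 0.00462), and UFGT VIT_216s0039g02230 at 75.4 and 49.1, at −0.60 ± 0.14 (adjusted p of limma = 0.0152). None of the 14 tested flavonol synthase genes, 5 dihydroflavonol reductase genes or 2 anthocyanidin reductase genes was called there, and 1 of 2 leucoanthocyanidin reductase genes was lower.

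Of the regulators, MYBA1 (VIT_202s0033g00410) was higher in LR-V at E-L 36, at 17.8 FPKM against 9.04 in C and a log2 difference of 0.91 ± 0.23 (adjusted p of limma = 0.0241), and was not called at the later stages. MYBPA1 (VIT_215s0046g00170), an activator of proanthocyanidin genes, was lower in LR-V at E-L 38, at 13.9 FPKM against 44.2, and −1.59 ± 0.46 (adjusted p of limma = 0.0209). MYBF1 (VIT_207s0005g01210), the activator of flavonol synthase, did not pass the expression minimum.

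The gene whose level was most like the summed F3′5′H level over the 27 libraries was VIT_203s0088g00260, annotated as a serine carboxypeptidase-like protein, at r = 0.831. It was followed by VIT_216s0039g02220, annotated as an anthocyanidin glucosyltransferase (r = 0.774), VIT_204s0008g03930, an RD22-like protein (r = 0.768), the chalcone isomerase VIT_213s0067g03820 (r = 0.75) and the LDOX VIT_202s0025g04720 (r = 0.735). The median r of all tested genes was 0.032. By Spearman's rho these genes ranked 1, 4, 12, 10 and 2. The genes most like the summed F3′H level were VIT_215s0048g01340 and VIT_219s0090g00850 (both r = 0.972), then VIT_211s0016g00400, VIT_203s0038g00590 and VIT_200s0349g00060 (each r = 0.971), none of which has a descriptive name in the deposited protein match. Their orthology entries name a poly(A) RNA polymerase, a splicing factor 3A subunit and a phosphatidylinositol phosphate kinase for the first 3 genes, and none for the others. The median r of all tested genes was 0.18. Libraries of a group share treatment and stage, so these coefficients are descriptions.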

How the data were processed

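The submitters' notes name Bowtie2 2.2.5, and the study's methods give single reads aligned to grapevine genome annotation V2. The authors deposited FPKM values per gene and library, with no read counts, so counting error could not be computed. No count model was used. FPKM was taken as log2(FPKM + 1). All 9 groups (27 libraries, 3 per group) were fitted together in limma 3.58.1 (statmod 1.5.0, R 4.3.3) with trend and robust empirical Bayes, without covariates, on genes with at least 1 FPKM in at least 3 libraries. P-values were adjusted by Benjamini-Hochberg over 19761 genes within each of 21 contrasts. The test was checked on simulated data.

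The members and the gene lists were chosen with earlier results of these data known. Named beside the members were other genes of both orthologies that passed the minimum, the 5 genes most correlated with each sum, the most abundant gene of each pathway list and 3 regulators. Per the series text, the 9 C libraries are re-analysed records of an earlier series. Alternatives covered the pseudocount, the filter, scaling, the model, the replicate letter, seed level and single libraries. One, without 6 libraries of high seed level, was added after seeing the data.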

Additional observations from a re-analysis of the deposited data

Results flagged for a closer look

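The following results differed between treatments or stages. VIT_206s0009g02805 was lower in LR-V than in LM-V at E-L 38, by a test of the difference (log2 difference −1.28, all 3 LR-V libraries below all 3 LM-V libraries). VIT_217s0000g07200 differed in the same comparison (−0.86), and its LR-V libraries lay below every C library while its LM-V libraries lay above every C library. The LM-V effect on VIT_217s0000g07200 also had opposite directions at E-L 37, where all LM-V libraries were below all C libraries, and at E-L 38. The interaction of 0.55 ± 0.19 was not called by limma (adjusted p = 0.124). The LR-V effect on VIT_206s0009g03010 differed between E-L 37 and E-L 36 by −1.47, by an interaction that depended on single libraries.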

How the results depend on the processing

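Each of the 41 called member differences had the same direction under each alternative run on it. Uncalled differences were not recomputed, except under the rebuilt rule, whose ratio of means for VIT_206s0009g02873 in LR-V against C at E-L 37 was above 1 (0.208 on the log2 scale) where the fit gave −0.29. Counts of members called were as follows. The mean LM-V effect, 2 as reported, was 1 with a pseudocount of 0.5 or 0.1, with no filter, with scaling, without trend and robust fitting, and without the 6 libraries of high seed level. The change from E-L 37 to E-L 38 in LR-V, 2 as reported, was 1 with no filter, scaling, no trend, only the compared groups, or without those 6 libraries, and 0 by the rebuilt rule. The LR-V interaction of E-L 37 and E-L 36 was 0 with scaling, only the compared groups, or without the 6 libraries. LR-V against C at E-L 36 was 0 with the seed covariate, only the compared groups, without the 6 libraries and by the rebuilt rule, and 1 without trend. At E-L 38 it was 3 with the seed covariate, 1 without the 6 libraries and 0 by the rebuilt rule. LR-V against LM-V at E-L 38 was 1 with the covariate or the rebuilt rule, and 0 with only the compared groups or without the 6 libraries. With only the compared groups, LR-V against C at E-L 37 was 4 in place of 6, LM-V against C at E-L 37 was 1, the step from E-L 36 in LR-V was 1, the last step in LM-V was 4 and the later LR-V interaction was 2. The rebuilt rule gave 0 for LM-V at E-L 38 and for the first step in LR-V and LM-V, and 1 for LR-V against LM-V at E-L 37 and for the last step in C and in LM-V.

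Leaving out 1 library gave ranges of 0 to 3 for LR-V against C at E-L 36, 4 to 8 at E-L 37 and 2 to 4 at E-L 38, 1 to 2 for LM-V at E-L 38 and for LR-V against LM-V at that stage, 2 to 4 and 1 to 4 for the steps in C, 1 to 2 and 0 to 3 in LR-V, 1 to 2 and 2 to 3 in LM-V, 1 to 3 for the mean LM-V effect, and 0 to 1 for both LR-V interactions. The mean LR-V effect stayed at 8.

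With all genes of the orthology, the F3′5′H sum of LR-V at E-L 38 was 229.7 FPKM. The F3′H sums were 218.7, 221.1 and 270.6 in C, 216.7, 168.6 and 206.5 in LR-V and 213.2, 198 and 265.7 in LM-V by stage, and the ratios 1.581, 2.182 and 1.308, then 1.058, 1.153 and 1.113, then 1.457, 1.728 and 1.122, so that the ratio was higher at E-L 37 than at E-L 36 in each arm, where the ratio of the members was lower. With scaling the F3′H sum of LR-V at E-L 36 was 32.14. The cause of these changes was not tested, apart from the added genes in the orthology sums.

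Replicate letters did not pair the libraries: same-letter pairs had a median r of −0.01 and other pairs 0.003, and 3 of 27 libraries were closest to their own letter. With the replicate block, LR-V against C at E-L 37 kept 6 members called and no other count or member call changed. With FPKM and no counts at hand, no counting interval could be given, which limits the reading of low genes such as VIT_206s0009g02873.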
